A study of Homo sapiens with 4 samples.

Results

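The human histone cluster genes were the 71 of 36601 listed features whose symbol starts with HIST1H, HIST2H, HIST3H or HIST4H. They were chosen by name alone, and they comprised 6 genes of the linker histone H1, 17 of H2A, 18 of H2B, 15 of H3 and 15 of H4. Their transcripts were followed in human H9 embryonic stem cells, wild type or with SIRT1 knocked out. SIRT1 encodes a deacetylase that uses NAD and has histones among its known substrates. Counts were read in cells with at least 4000 UMIs (unique molecular identifiers, each marking 1 captured RNA molecule) and 1000 genes, and with at most 20% of UMIs from mitochondrially encoded genes.

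Histones package DNA into nucleosomes, whose core is built from H2A, H2B, H3 and H4, while H1 binds the DNA between cores. Cells need new histones when they copy their DNA, so most clustered histone genes are transcribed mainly in S phase, and their mRNAs end in a conserved stem-loop that is bound by SLBP instead of a poly(A) tail. Some members also make polyadenylated transcripts, in particular in cells that leave the cell cycle, and capture through poly(A) reads those more readily. Levels given here are therefore those of captured molecules. They are compared for each gene between libraries, and the order of levels among genes does not give the order of their total mRNA.

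Wild-type H9 (WA09) cells and H9 cells with SIRT1 knocked out were each taken on day 0, undifferentiated, and on day 6 of differentiation to dopaminergic neurons, which gave 4 groups. Each group was 1 library of the Chromium 3′ assay, so cells were not replicates, no difference between groups could be tested, and every interval below covers counting error only. All cells were kept on Geltrex in mTeSR1 medium before differentiation. The labels do not say how SIRT1 was disrupted, whether the knockout line was a single clone, or which agents were used between day 0 and day 6. Wild type against knockout therefore cannot be told apart from a difference between lines or between library preparations.

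The libraries held 5533 and 7275 cells on day 0 and 5372 and 4419 cells on day 6, wild type first, with a median of 8367 to 13169 UMIs in each cell and 51424092 to 73451883 UMIs in all. Libraries shared 5 to 18 cell barcodes a pair, at most 0.325% of a library. SIRT1 itself (chr10:67884669-67918390, plus strand, GRCh38) had 32.3 CPM (UMIs per 1000000 UMIs of the cells) in wild type and 7.11 in knockout on day 0, and 30.2 and 9.95 CPM on day 6. The knockout was 4.54-fold lower (95% interval 4.13 to 5.01) and 3.04-fold lower (2.77 to 3.34), so reads from the gene remained. Summed over 8 pluripotency markers such as POU5F1, the level was 3461 and 3151 CPM in wild type and knockout on day 0 and 1330 and 1484 CPM on day 6. Summed over 6 neural progenitor markers it was 360 and 575 CPM and then 3100 and 3046 CPM, most of it VIM, while the defining genes PAX6, SOX1 and HES5 stayed under 2 CPM in every library. Floor plate and ventral midbrain markers, 7 genes, summed to 39.7 and 46.7 CPM and then 113 and 129 CPM, with FOXA2 at 3.76 and 0.994 and then 91.4 and 101 CPM. In wild type 2 of these genes reached 2 CPM on either day. On day 6, 1 was at least 1.5-fold higher and 1 lower, against 12.3% and 41.5% of all features. In knockout 3 of 4 such genes were higher and 1 lower, against 15.2% and 24.8%. The median share of UMIs from chromosome 20 was 3.37% and 3.16% in wild type and 2.46% and 2.35% in knockout cells. Ribosomal protein and mitochondrially encoded genes were left out of this chromosome 20 share and of its total. The 69 members with a GENCODE v29 position lie on other chromosomes: 53 in the HIST1 cluster (chr6:25726132-27893843), 12 in HIST2 (chr1:143894544-149887916), 3 in HIST3 (chr1:228424845-228460470) and HIST4H4 alone (chr12:14767999-14771131).

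The 3′ stem-loop is printed here because it sets how these mRNAs end and so how an assay that primes on poly(A) sees them. It was searched in the GENCODE v29 transcripts (GRCh38) of the members as a strict pattern. The pattern starts with GG, ends with CC, has TTT in the loop and pairs along the whole stem, G with T allowed. Stem-loops of other make would be missed. Matches were found in transcripts of 31 genes, in 5 forms. Each runs 5′ to 3′, and the capitals mark the loop between the 2 arms of the stem.
HIST2H2BE and 16 others: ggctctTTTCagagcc
HIST4H4 and 4 others: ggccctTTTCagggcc
HIST1H3G and 4 others: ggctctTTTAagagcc
HIST1H4I and 2 others: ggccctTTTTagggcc
HIST1H2AG: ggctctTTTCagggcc
The form of HIST2H2BE occurred in 6 H2A, 8 H2B and 3 H3 genes, and the forms of HIST4H4 and HIST1H4I in H4 genes only. In 22 of the 31 genes an annotated transcript ran at least 100 bases past the stem-loop, and in 15 of those the poly(A) signal AATAAA lay in the further stretch. In HIST2H2BE the transcript went on for 1729 bases, and in HIST1H2AC for up to 1128. Of these 22 genes 13 reached 10 CPM in a library, with a median highest level of 11.9 CPM. The 32 genes whose models ended with the coding part had a median highest level of 3.03 CPM, and 8 reached 10 CPM. HIST1H1C, at up to 182 CPM, was among these 8. The 5 genes with bases after the coding part but no stem-loop found had a median of 9.10 CPM, with HIST1H4C highest at 1393 CPM. Whether the end of the model, rather than that of the transcript, bears on these levels was not tested. HIST1H4C was annotated for 51 bases after its stop codon with no stem-loop of this strict pattern found.

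Of the 71 members 54 reached 2 CPM in at least 1 library and 27 reached 10 CPM. A further 12 had UMIs but stayed under 2 CPM, among them the testis linker histone HIST1H1T. The other 5, HIST2H3C, HIST2H2AA3, HIST3H3, HIST1H4G and HIST1H4K, had no UMI in any library, which allows levels of up to 0.0408 to 0.0583 CPM (3 counts a library). HIST2H2AA3 and HIST2H2AA4, HIST2H3A and HIST2H3C, and HIST2H4A and HIST2H4B are near-identical copies, so reads of a pair may be lost or counted under either name and their values are uncertain.

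**Figure D1:**
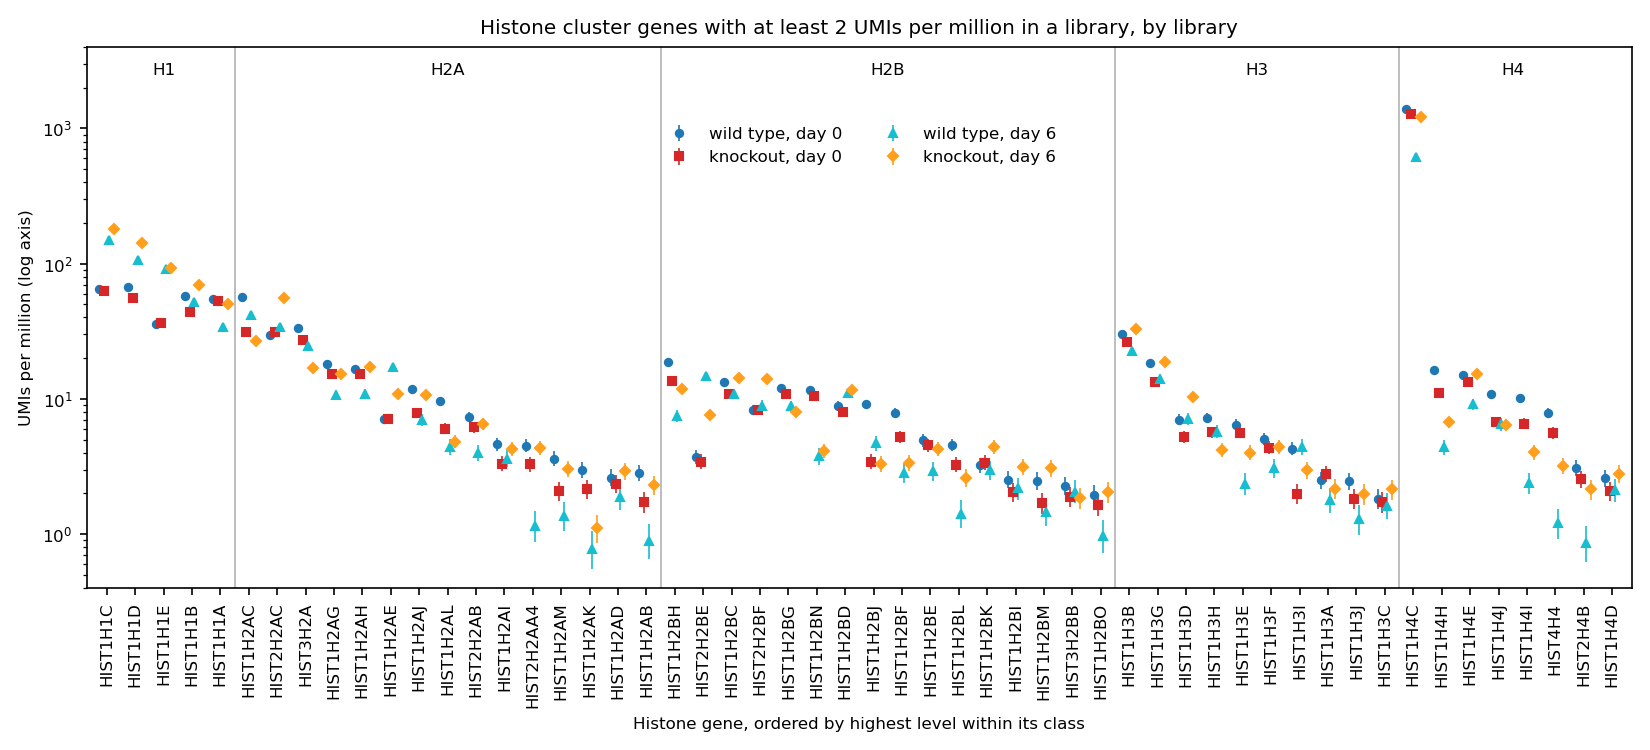
CPM (log axis) of the 54 histone genes that reached 2 CPM, by class and in order of their highest level, in wild type and knockout on day 0 and day 6. Each point is 1 library and its bar an exact Poisson 95% interval. HIST1H4C lies far above the rest, and the H1 genes HIST1H1C, HIST1H1D and HIST1H1E are higher on day 6 than on day 0 in both lines.

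A single H4 gene, HIST1H4C, made up most of the captured mRNA of the 71 members in 3 of the 4 libraries. Histone variant genes outside the clusters are not part of this sum. On day 0 it had 1393 CPM (wild type) and 1278 CPM (knockout), and on day 6 610 and 1210 CPM. Wild type on day 6 was thus the low library, at 43.9% of the UMIs of all members against 56.0% to 67.0% in the others. The sum over all members was 2160, 1907, 1390 and 2159 CPM in the same order. Without HIST1H4C it was 767 and 629 CPM on day 0 and 780 and 949 CPM on day 6, so wild type on day 6 had the lowest sum only with HIST1H4C counted. With each cell thinned to 4000 UMIs, HIST1H4C was seen in 92.7%, 92.3%, 76.6% and 88.4% of cells (unthinned 98.97%, 97.4%, 88.9% and 97.2%). Its mean per thinned cell was 5.37, 4.84, 2.24 and 4.41 UMIs. If 10% of a cell's UMIs were free RNA of its library, 26.2%, 24.9%, 11.98% and 22.7% of cells would show it from that source. The shares measured were well above these in every library, and no cell type here should lack a histone mRNA to give a measured background.

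The linker histones came next, with 280, 252, 433 and 537 CPM summed over 6 genes. HIST1H1C stood at 65.1 and 63.3 CPM on day 0 and 149 and 182 CPM on day 6, HIST1H1D at 67.1 and 55.6 and then 106 and 142 CPM, and HIST1H1E at 35.6 and 36.3 and then 91.9 and 93.2 CPM. HIST1H1B went from 57.6 and 43.6 to 52.0 and 70.1 CPM, and HIST1H1A from 54.6 and 52.9 to 34.1 and 50.0 CPM. The first 3 were higher on day 6 in both lines, HIST1H1B only in knockout, and HIST1H1A in neither. H2A genes summed to 212, 162, 164 and 182 CPM, H2B genes to 117, 93.3, 88.1 and 101 CPM, and H3 genes to 86.5, 70.0, 64.6 and 84.5 CPM. In those 3 classes the day 0 wild-type library had the highest sum, and the 4 libraries lay within a narrower range than for H1 or H4.

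Promoters (250 bases before to 50 after the start site, RefSeq, GRCh38.p14) were matched for 64 of the 71 members, and they set the classes apart by sequence. The element AAACACA, known from H1 promoters as the H1 box and chosen after the other motifs, occurred on either strand in 6 of 6 H1 promoters, 1 of 14 H2A, 0 of 18 H2B, 2 of 13 H3 and 0 of 13 H4, against 5.66% of all 34796 promoters of the table. The octamer ATTTGCAT, the element known to bind OCT factors in H2B promoters, occurred in 11 of 14 H2A and 14 of 18 H2B promoters and in none of the other classes, against 1.76% of all. CCAAT occurred in every H1, H2A, H2B and H3 promoter and in 3 of 13 H4 promoters, against 34.6% of all, and TATAAA in 43 of 64 against 11.6%. Copies of different motifs can share end bases, and a match says only that the letters are there. Where the windows of an H2A and an H2B gene overlap, as for HIST2H2AC and HIST2H2BE, 1 site can count in both classes. The H2A and H2B counts are therefore not separate. Of the H1 genes, HIST1H1C (chr6:26056421-26056720, minus strand) and HIST1H1E (chr6:26156079-26156378, plus strand) were higher on day 6 in both lines, and HIST1H1B (chr6:27867539-27867838, minus strand) in knockout only. Their promoters are printed to show the shared H1 layout, with these letters (the octamer excepted) on either strand in capitals.
HIST1H1C: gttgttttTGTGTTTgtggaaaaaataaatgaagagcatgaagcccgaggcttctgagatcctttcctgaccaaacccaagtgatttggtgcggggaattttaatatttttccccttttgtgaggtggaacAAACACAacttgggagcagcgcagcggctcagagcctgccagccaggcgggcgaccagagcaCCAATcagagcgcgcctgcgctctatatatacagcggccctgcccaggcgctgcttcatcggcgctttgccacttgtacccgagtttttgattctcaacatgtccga
HIST1H1E: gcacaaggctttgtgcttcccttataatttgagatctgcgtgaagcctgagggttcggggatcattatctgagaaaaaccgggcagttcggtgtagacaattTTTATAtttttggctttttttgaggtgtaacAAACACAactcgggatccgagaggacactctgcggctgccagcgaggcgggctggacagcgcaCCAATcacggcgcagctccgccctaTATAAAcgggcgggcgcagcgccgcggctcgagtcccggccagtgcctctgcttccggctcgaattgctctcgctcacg
HIST1H1B: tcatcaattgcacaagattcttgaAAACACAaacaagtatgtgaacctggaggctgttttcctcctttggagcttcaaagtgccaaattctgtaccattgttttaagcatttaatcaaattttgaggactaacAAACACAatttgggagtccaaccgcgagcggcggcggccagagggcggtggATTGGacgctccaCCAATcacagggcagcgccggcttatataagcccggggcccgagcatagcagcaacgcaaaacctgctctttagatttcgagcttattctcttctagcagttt
All 3 hold AAACACA upstream of CCAAT, and TATAAA was found in HIST1H1E but not in the other two.

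Members also lie in pairs read away from each other, of which 12 were found with GENCODE v29 start sites 219 to 357 bases apart, all but 1 an H2A and an H2B gene. HIST2H2BE (chr1:149886633-149886932, minus strand) and HIST2H2AC (chr1:149886668-149886967, plus strand) start 323 bases apart, and their promoter windows overlap on opposite strands. They are printed because their levels went apart on day 6, with copies of the same 4 motifs on either strand in capitals.
HIST2H2BE: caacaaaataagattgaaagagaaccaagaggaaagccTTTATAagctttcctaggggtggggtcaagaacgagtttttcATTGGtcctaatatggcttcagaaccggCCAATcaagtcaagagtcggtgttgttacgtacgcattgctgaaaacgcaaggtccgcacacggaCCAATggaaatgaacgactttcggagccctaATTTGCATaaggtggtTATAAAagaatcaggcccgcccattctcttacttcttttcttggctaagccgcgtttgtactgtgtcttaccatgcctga
HIST2H2AC: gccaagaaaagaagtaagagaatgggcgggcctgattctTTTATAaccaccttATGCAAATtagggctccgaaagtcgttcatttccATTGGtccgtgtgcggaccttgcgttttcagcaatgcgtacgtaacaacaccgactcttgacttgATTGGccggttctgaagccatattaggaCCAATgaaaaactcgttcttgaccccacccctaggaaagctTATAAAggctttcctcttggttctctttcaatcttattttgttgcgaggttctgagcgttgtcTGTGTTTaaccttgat
HIST2H2BE had 3.75 and 3.44 CPM in wild type and knockout on day 0, and 14.8 and 7.61 CPM on day 6. HIST2H2AC had 29.6 and 31.0 CPM on day 0, and 34.1 and 55.5 CPM on day 6. The H2B gene was thus highest in wild type on day 6, and the H2A gene in knockout on day 6.

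The first comparison asked how loss of SIRT1 went with histone mRNA in undifferentiated cells. Here members were called where they reached 2 CPM in 1 of the 2 libraries, differed at least 1.5-fold and had a 95% interval that excluded a ratio of 1. Of 52 members measured in this way, 0 were higher and 9 lower in knockout on day 0, against 2.30% and 4.48% of all features, so that the lower members were 17.3% of those measured. With 1 library a group these counts have no test, and in sums over cells fewer cells with a transcript and less of it in each cell cannot be told apart. The median log2 ratio of the members was -0.31 beside -0.02 for all features, and 48 of the 52 had a ratio below 1. Lower members were 5 H2A genes, 2 H4, 1 H2B and 1 H3.

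HIST1H2BJ, an H2B gene, showed the largest difference, from 9.10 CPM (wild type) to 3.43 CPM (knockout), 2.65-fold lower (2.29 to 3.08). HIST1H3I, an H3 gene, was 2.15-fold lower (1.76 to 2.64), at 4.28 and 1.99 CPM. HIST1H2AC, the most highly captured H2A gene of the wild type, was 1.83-fold lower (1.74 to 1.93), at 57.0 and 31.1 CPM. These 3 members lie in different classes and at quite different levels. HIST1H2AM (3.62 and 2.08 CPM), HIST1H2AB (2.85 and 1.72 CPM) and HIST1H4J (10.9 and 6.74 CPM) were 1.74-, 1.66- and 1.61-fold lower. HIST1H4I and HIST1H2AJ were 1.54- and 1.51-fold lower, and the ninth, HIST1H2AL, was 1.60-fold lower. Of the members with the highest ratios, HIST1H3A stood at 2.51 and 2.79 CPM (ratio 1.11, 0.908 to 1.37) and HIST2H2AC had a ratio of 1.05 (0.990 to 1.11). HIST1H4C had a ratio of 0.917 and the H1 sum one of 0.898 (0.881 to 0.916), and no H1 gene was called.

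By class the ratio of sums was 0.764 for H2A, 0.798 for H2B, 0.809 for H3 and 0.908 for H4. Over all members it was 0.883 (0.876 to 0.889), and without HIST1H4C 0.820 (0.810 to 0.830). Among the 1888 knockout cells whose chromosome 20 share was 3% or more, 17 members were lower, the 9 above included. Within cells scored S phase, 0 of 55 measured members were higher and 13 lower, against 2.96% and 4.74% of all features, and within cells scored G2/M 0 of 49 and 9, against 2.27% and 4.93%. Beside these values, 40.7% of knockout and 41.0% of wild-type cells were scored S phase, and 2 of 5 mesenchymal markers were higher in knockout, COL3A1 (0.0817 and 4.19 CPM) and LUM (0.0681 and 2.16 CPM), with the list's sum at 92.3 and 106 CPM. Of 3 measured neural progenitor markers VIM was higher and FABP7 lower, 2 of 4 neuron markers were higher (STMN2 at 1.72 and 7.76 CPM, and ELAVL3), and 2 of 8 pluripotency markers were lower (TDGF1 and L1TD1). The part of these cells in the histone levels was not tested.

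On day 6 the comparison of knockout with wild type went mostly the other way. Of 52 measured members 21 were higher and 3 lower in knockout, against 21.7% and 6.05% of all features. The higher members were 40.4% of those measured, and 42 of 52 had a ratio above 1. The median log2 ratio was 0.53 for the members and 0.27 for all features. Higher members were 8 H2A, 6 H2B, 6 H4 and 1 H3, and lower members were 2 H2A and 1 H2B. With TMM factors, which bring the median of all features from 0.27 to 0.02, 9 members were higher and 7 lower, against 9.67% and 10.8% of all features.

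HIST1H4C was 1.98-fold higher (1.96 to 2.01), and 1.67-fold with TMM factors. The ratio of the histone sum was 1.55 (1.54 to 1.57) with it and 1.22 (1.20 to 1.23) without it. HIST2H2AA4, an H2A copy gene whose reads may be shared with HIST2H2AA3, showed the largest ratio, 3.78 (2.84 to 5.09), at 1.15 and 4.33 CPM. HIST4H4, the isolated H4 gene on chromosome 12, stood at 1.21 and 3.18 CPM, a ratio of 2.64 (1.98 to 3.57). HIST1H2AB had a ratio of 2.58, HIST2H4B 2.50, HIST1H2AM 2.24 and HIST1H2BM 2.10. All 6 of these genes were under 5 CPM on day 6. Among members at higher levels, HIST2H2AC had a ratio of 1.63 (1.54 to 1.72), HIST1H4E 1.67, HIST1H2AH 1.57 and HIST1H2BH 1.56.

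The 3 members lower in knockout on day 6 were HIST2H2BE, 1.94-fold (1.73 to 2.18), HIST1H2AC, 1.57-fold (1.47 to 1.67), and HIST1H2AE, 1.56-fold (1.42 to 1.73). HIST1H2AC had 41.9 and 26.8 CPM, and HIST1H2AE 17.1 and 10.9 CPM, knockout second. All 3 hold the stem-loop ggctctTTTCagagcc, a form found in 17 of 31 genes, HIST2H2AA4 and HIST1H2BH among them, which were higher. The annotated transcripts of HIST2H2BE and HIST1H2AC go on far past it, and that of HIST1H2AE for 51 bases. HIST1H2AC was the only member called lower in knockout on both days, at 57.0 and 31.1 CPM on day 0. Its partner HIST1H2BC, which starts 219 bases away on the other strand, was not called on either day, at 13.3 and 10.8 CPM and then 10.9 and 14.3 CPM. The H1 genes were not called on day 6, with ratios from 1.01 for HIST1H1E to 1.47 for HIST1H1A and 1.24 (1.22 to 1.26) for their sum. Sums of H2A and H2B had ratios of 1.11 and 1.15, and of 0.936 and 0.968 with TMM factors, so their direction depended on the scaling. For H3 the ratio was 1.31 and 1.10, and for H4 1.96 and 1.65, in that order.

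**Figure D2:**
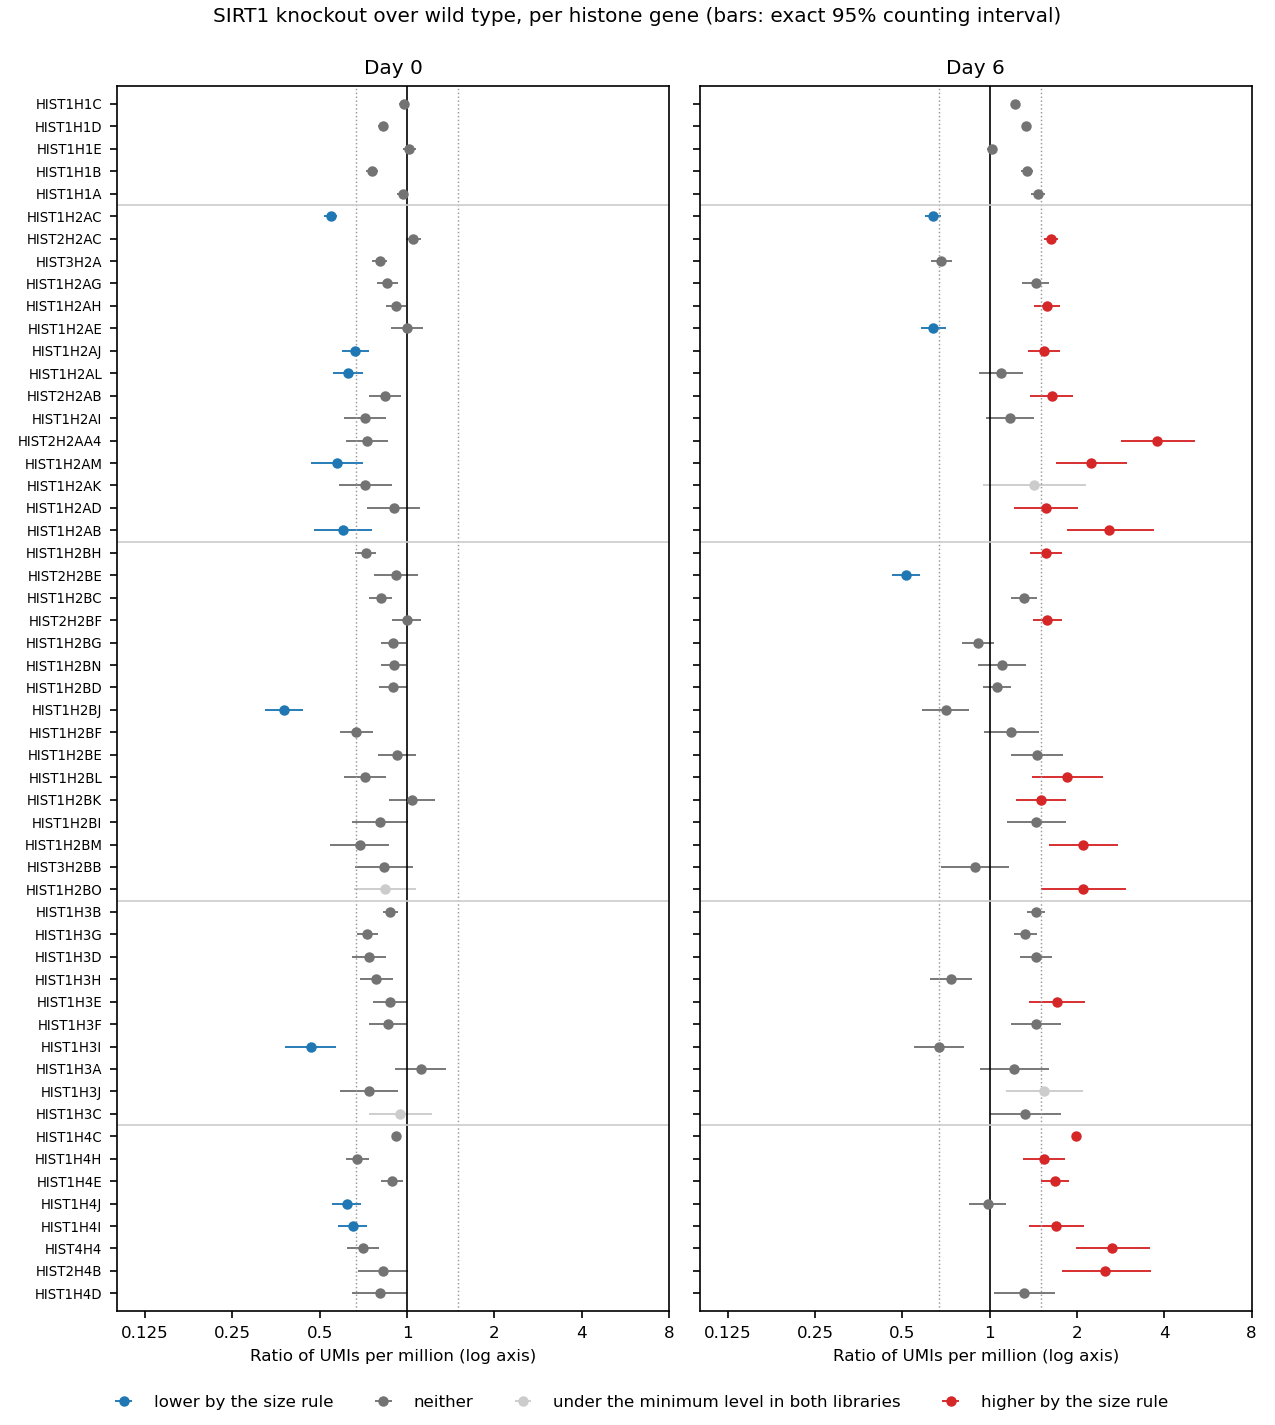
Ratio of CPM in SIRT1 knockout over wild type (log axis) for the same 54 genes on day 0 and day 6, with exact 95% counting intervals and classes parted by grey lines (H1, H2A, H2B, H3, H4 from the top). Dotted lines mark 1.5-fold, and colour shows the call by size and interval. On this view 9 genes are lower on day 0, and 21 are higher and 3 lower on day 6.

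Other values moved with genotype on day 6. The share of cells scored S phase was 15.7% in wild type and 26.7% in knockout, and that of cells scored G1 36.5% and 23.4%. Within cells scored S, 8 of 55 measured members were higher and 5 lower in knockout, against 21.8% and 5.78% of all features. Within cells scored G2/M, 19 of 53 were higher and 1 lower, against 23.3% and 6.10%. Within cells scored G1, 0 of 30 were higher and 6 lower, against 16.9% and 6.71%. The count of higher members was thus above the background share in G2/M and below it in S and G1. With the 3 phases weighted equally 6 of 46 were higher, against 20.5% of all features, and in cells of at least 8000 UMIs 13 of 51, against 23.5%. HIST1H4C had a ratio of 1.41 (1.36 to 1.47) in G1, 1.82 (1.77 to 1.87) in S and 1.85 (1.82 to 1.88) in G2/M. It was called in S and G2/M but not in G1, where it stayed under 1.5-fold. The median log2 ratio of all features was 0.19, 0.25 and 0.28 in the same order. The sum of the other members had ratios of 0.790, 1.10 and 1.21. HIST1H2AC was 1.85-, 1.83- and 1.39-fold lower in G1, S and G2/M, and HIST2H2BE 3.53-, 1.34- and 1.62-fold.

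Mesenchymal markers were also lower in the knockout on day 6. The 5 genes summed to 670 CPM (wild type) and 144 CPM (knockout), and 2 of 3 measured were lower, TAGLN (288 and 38.5 CPM) and COL1A1 (369 and 94.6 CPM), while LUM and COL3A1 stayed under 2 CPM. Neural progenitor markers had a ratio of sums of 0.982, carried by VIM, while FABP7 was called higher (20.4 and 121 CPM). Pluripotency markers had one of 1.12, with L1TD1 called higher (73.1 and 179 CPM) and NANOG (32.4 and 13.2 CPM) and TDGF1 lower. Of the floor plate and midbrain markers EN1 (1.61 and 9.60 CPM) and LMX1A (0.564 and 2.48 CPM) were called higher, and of the neuron markers DCX was higher and ELAVL3 lower. The part of these cells in the histone ratios was not tested. Among the 1084 knockout cells whose chromosome 20 share was 3% or more, 6 members were lower, among them the same 3, and HIST1H4C had a ratio of 1.86.

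In wild type, 5 of 52 measured members were higher and 27 lower on day 6 than on day 0, against 12.3% and 41.5% of all features. The lower members were 51.9% of those measured, and the median log2 ratio was -0.65 for the members and -0.42 for all features. Lower members were 9 H2A, 7 H2B, 7 H4, 3 H3 and 1 H1. With TMM factors, which bring the median of all features to -0.01, 7 members were higher and 15 lower, against 23.2% and 25.0%. The sums of H4 and of H1 went opposite ways. The H4 sum was 2.29-fold lower (2.26 to 2.32), the H1 sum was 1.55 times as high (1.52 to 1.58), and the sums of H2A, H2B and H3 had ratios of 0.775, 0.753 and 0.747. With TMM factors the H4 ratio was 0.570 and the H1 ratio 2.02, while H2A, H2B and H3 stood at 1.01, 0.983 and 0.975.

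HIST1H4C was 2.28-fold lower (2.26 to 2.31) on day 6 in wild type. HIST4H4 was 6.56-fold lower (5.04 to 8.67), at 7.91 and 1.21 CPM, and HIST1H4I 4.25-fold (3.51 to 5.20), at 10.1 and 2.37 CPM. HIST1H4H, at 16.4 and 4.38 CPM, was 3.75-fold lower (3.25 to 4.34), so that H4 genes of 2 chromosomes stood at a fraction of their day 0 levels. HIST2H2AA4, HIST1H2AK and HIST2H4B were 3.94-, 3.85- and 3.60-fold lower, each from under 5 CPM. HIST1H1A, the lone H1 gene called lower, was 1.60-fold lower (1.52 to 1.70). The 5 higher members were HIST2H2BE, 3.95-fold (3.43 to 4.55), HIST1H1E, 2.58-fold (2.46 to 2.71), HIST1H2AE, 2.41-fold (2.16 to 2.69), HIST1H1C, 2.29-fold (2.21 to 2.38), and HIST1H1D, 1.58-fold (1.52 to 1.64). HIST1H2AE went from 7.11 to 17.1 CPM.

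In knockout, 11 of 52 measured members were higher and 7 lower on day 6, against 15.2% and 24.8% of all features, with a median log2 ratio of 0.25 for the members and -0.12 for all features. With TMM factors, 15 of 51 were higher and 3 lower, against 19.7% and 19.9%. The H1 sum was 2.13 times as high (2.10 to 2.17), with HIST1H1C at 2.87 (2.78 to 2.97), HIST1H1E at 2.57 (2.45 to 2.69), HIST1H1D at 2.55 (2.46 to 2.65) and HIST1H1B at 1.61 (1.54 to 1.68). HIST2H2BE was 2.21 times as high, HIST1H3D 1.98 and HIST2H2AC 1.79. HIST1H4C had a ratio of 0.946, 1.03 with TMM factors. The 7 lower members included HIST1H2BN, 2.55-fold (2.21 to 2.94), HIST1H2AK, 1.95-fold, HIST4H4, 1.75-fold (1.48 to 2.08), HIST1H4H, 1.64-fold, HIST1H4I, 1.63-fold, and HIST3H2A, 1.61-fold. HIST1H2BN stood at 11.7 and 10.5 CPM on day 0 and at 3.75 and 4.13 CPM on day 6, low in both lines. The difference between the lines in their change with time was not tested, and each library on day 6 is set against its own line on day 0.

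**Figure D3:**
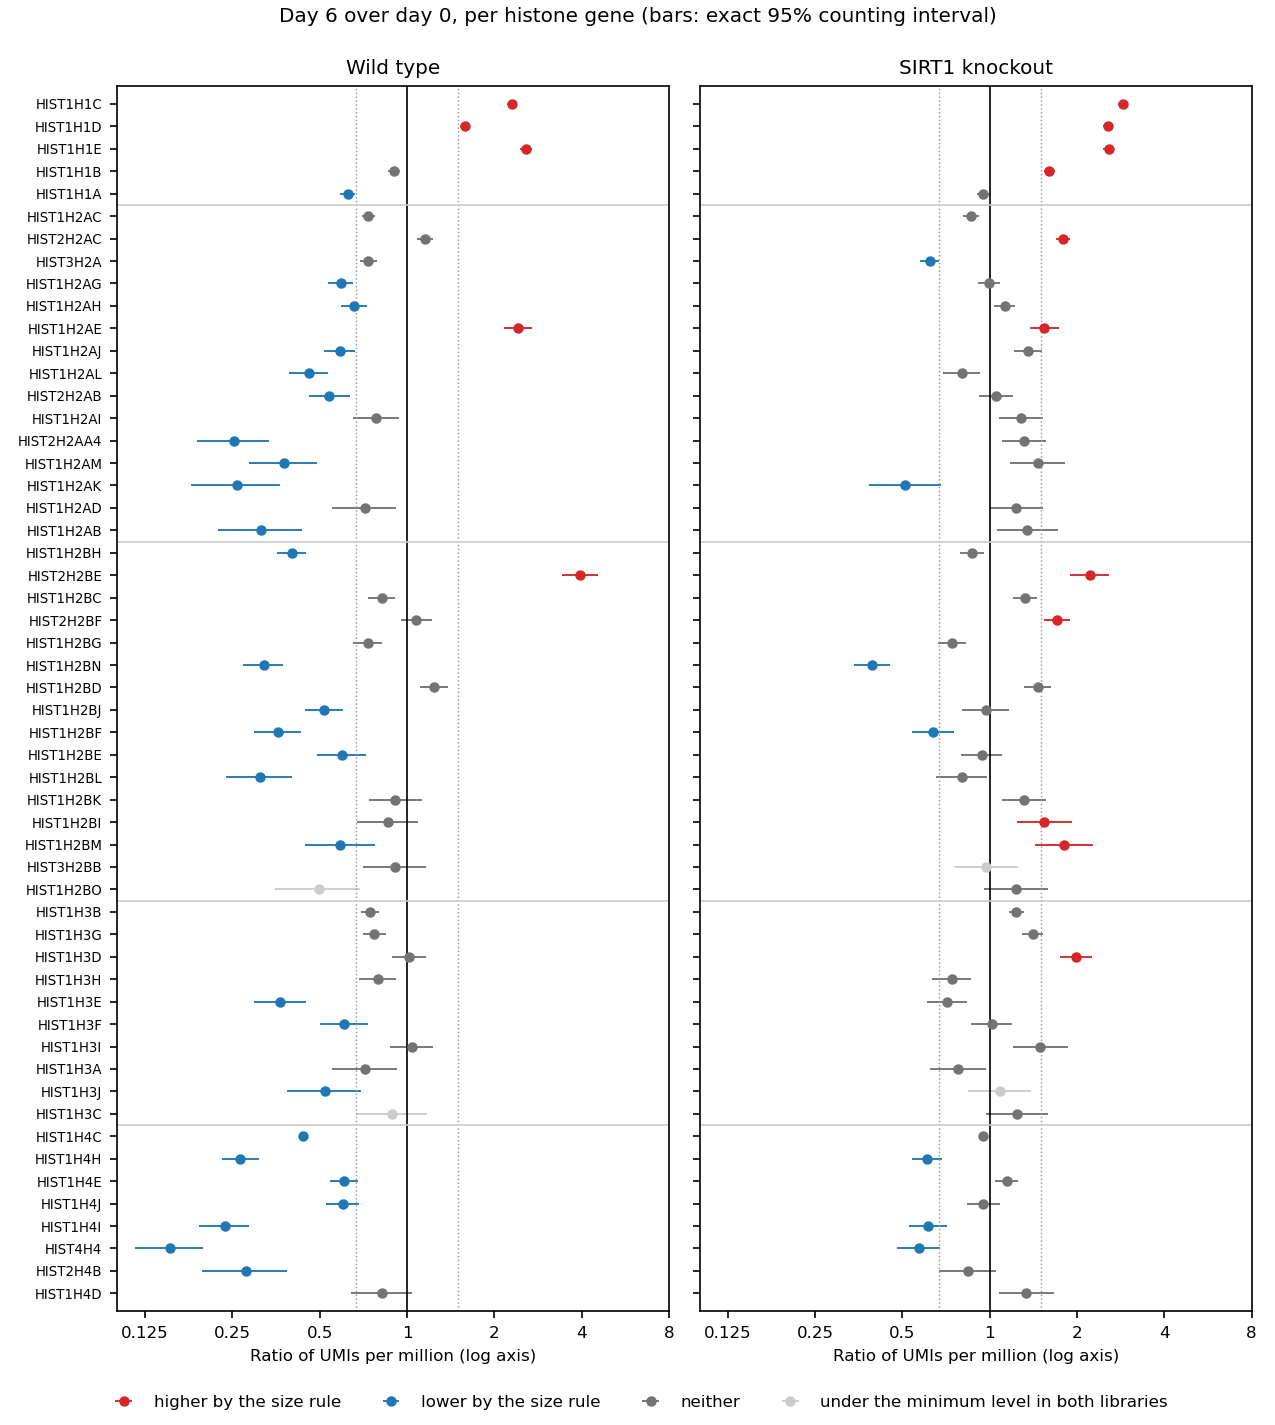
Ratio of CPM on day 6 over day 0 (log axis) for the same 54 genes in wild type and in SIRT1 knockout, with exact 95% counting intervals and classes in the same order. Dotted lines mark 1.5-fold. HIST1H1C, HIST1H1D, HIST1H1E, HIST1H2AE and HIST2H2BE are higher in both lines, and 27 genes are lower in wild type against 7 in knockout.

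Phase shares changed with time in both lines. Cells scored G1 were 1.17% (0.908% to 1.49%, exact binomial) in wild type and 2.21% (1.89% to 2.58%) in knockout on day 0, and 36.5% and 23.4% on day 6. From 20.7% to 30.7% of cells lay within 0.05 of a limit between phases, so these classes are ranges of a score. Within cells scored S, HIST1H4C was 2.12-fold lower on day 6 in wild type and had a ratio of 1.01 (0.990 to 1.02) in knockout. HIST2H2BE within S cells was 2.47 times as high in wild type and 1.93 times in knockout.

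Histone mRNA followed the scored phase, with the phase lists holding no histone gene. In S against G1 the log2 ratio of the histone sum was 0.58 and 0.29 in wild type and knockout on day 0, where G1 held only 65 and 161 cells, and 1.06 and 1.53 on day 6. With phases scored on unthinned cells the day 0 values were 1.74 and 0.98. HIST1H4C had 305 CPM in G1, 749 in S and 733 in G2/M in wild type on day 6, and at 432, 1362 and 1355 CPM in knockout. S and G2/M were thus alike and G1 low in both. H1 genes summed to 287, 549 and 479 CPM in wild type and 244, 634 and 574 CPM in knockout on day 6. H3 genes summed to 26.0, 90.5 and 78.0 CPM and 20.5, 97.1 and 96.4 CPM, the class with the largest fold between G1 and S on day 6. On day 0 H1 genes stood at 180, 366 and 227 CPM in wild type and 175, 320 and 216 CPM in knockout, with S well above G2/M.

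Members differed in how far they followed phase. Of the 27 that reached 10 CPM, 20 were higher in S than in G1 in all 4 libraries and 14 higher in S than in G2/M. The highest mean log2 S to G1 ratios over the 4 libraries were those of HIST1H3G (2.08), HIST1H4I (1.78), HIST1H1B (1.72), HIST1H3B and HIST1H1A (both 1.52). HIST1H3G had log2 ratios of 1.55 and 1.27 on day 0 and 2.56 and 2.94 on day 6, and HIST1H1B 1.31 and 0.77 and then 2.05 and 2.77. The lowest were those of HIST3H2A (-0.12), HIST1H2BD (-0.11), HIST2H2BE (0.13), HIST1H4J (0.25) and HIST1H2AC (0.28). HIST3H2A, at 0.24, -0.04, -0.10 and -0.58, and HIST1H2BD, at -0.24, -0.34, -0.28 and 0.41, were above 0 in 1 library each. HIST2H2BE scattered widely, at -0.19, 0.96, -0.82 and 0.56. Day 0 ratios of genes at low levels rest on few UMIs, with 617254 and 1438394 UMIs in G1. On day 6 alone the means of the 5 lowest were -0.34, 0.065, -0.13, 0.34 and 0.12, in the order above. Of the 5 lowest members, 4 were on a list of 11 members known to make polyadenylated transcripts in cells that do not divide. None of the highest 5 was on it. The other 3 of the 7 listed members among the 27 lay mid-table, HIST1H4H at 1.12, HIST1H1C at 1.04 and HIST1H2BC at 0.93. Among H1 genes HIST1H1B and HIST1H1A followed phase most (1.72 and 1.52), and HIST1H1C, HIST1H1D and HIST1H1E less (1.04, 0.87 and 0.64), the same 3 that were higher on day 6 in both lines.

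**Figure D4:**
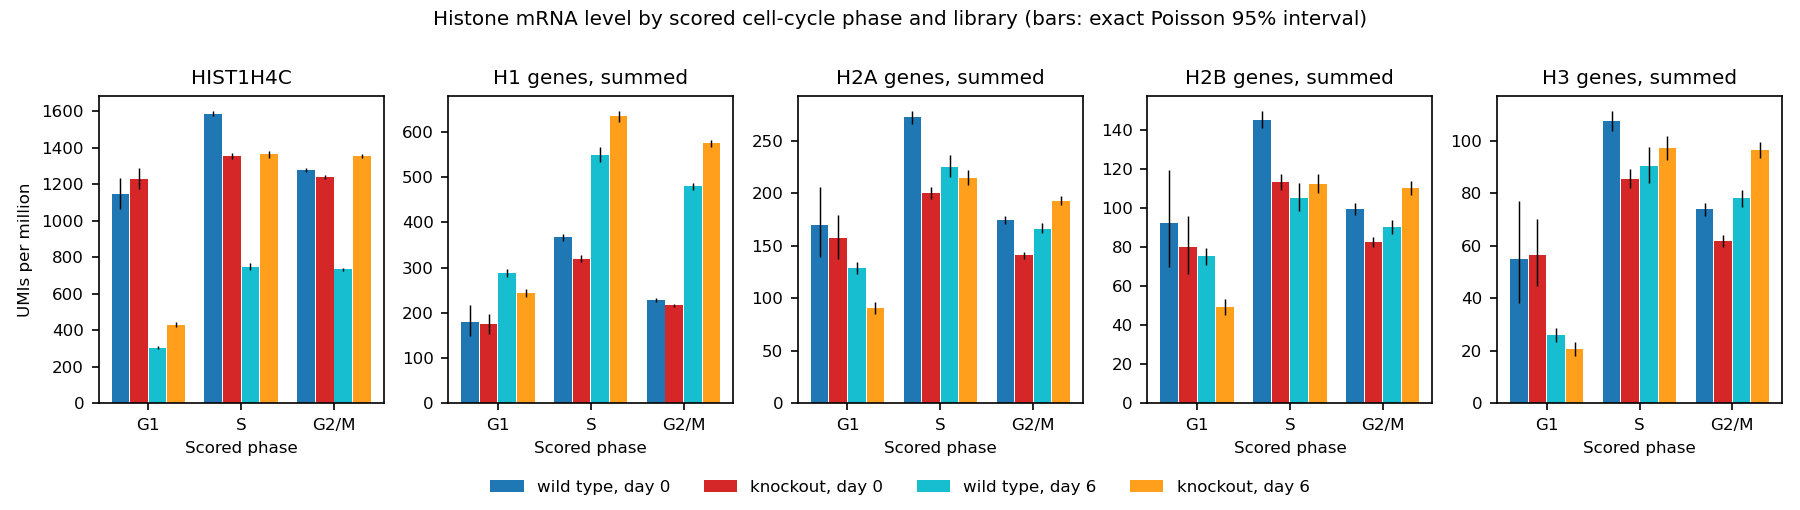
CPM of HIST1H4C and of the summed H1, H2A, H2B and H3 genes in cells scored G1, S and G2/M, for each of the 4 libraries, with exact Poisson 95% intervals. On day 6 every panel is lowest in G1, and HIST1H4C in knockout lies above wild type in all 3 phases.

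The genes around histone supply were read from lists chosen by function. Of the 12 replication-independent variants, which are made outside S phase, 11 were measured. None was called between genotypes on day 0, against 2.30% of all features higher and 4.48% lower in knockout. Only the macroH2A gene H2AFY2 was higher on day 6 (17.4 and 35.2 CPM, 2.02-fold), 1 of 11 against 21.7% of all features. From day 0 to day 6 the linker variant H1F0, known from cells that stop dividing, was 6.498 times as high in wild type (21.8 to 142 CPM) and 4.21 times in knockout (28.97 to 122 CPM). H2AFZ was lower in both (1334 to 688 and 1481 to 978 CPM), as was H2AFJ (130 to 36.7 and 118 to 48.8 CPM). H3F3B, which encodes the replacement histone H3.3, was higher in wild type (1329 to 2466 CPM) and not called in knockout (1356 to 1905 CPM). Together 2 of 11 variants were higher and 3 lower in wild type, against 12.3% and 41.5% of all features. In knockout 1 was higher and 2 lower, against 15.2% and 24.8%.

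Of 17 factors that transcribe histone genes and process their mRNA, 0 were called on day 0, against 2.30% of all features higher and 4.48% lower. Their median log2 ratio there was -0.23 beside -0.02 for all features, and their sum had a ratio of 0.826. On day 6 their median log2 ratio was 0.27, that of all features, and 2 were higher in knockout, against 21.7% of all features. These were CASP8AP2, a known partner of NPAT in histone transcription (23.2 and 41.7 CPM), and the endonuclease CPSF3 (22.1 and 34.9 CPM). SLBP stood at 47.6 and 39.0 CPM on day 0 and 35.3 and 43.6 CPM on day 6, and NPAT at 20.1 and 16.6 and then 16.1 and 18.7 CPM. Neither was called in any of the 4 comparisons. From day 0 to day 6 in wild type 1 of the 17 was higher and 6 lower, and in knockout 2 and 3. With 41.5% and 24.8% of all features lower in those comparisons, the lower counts were under the background share. With TMM factors 6 of 17 were lower in wild type, against 25.0% of all features, and 1 in knockout, against 19.9%. The wild-type count was then above the background share, so this reading depended on the scaling. Of 5 listed decay factors in the files none was called between genotypes. All features stood at 2.30% higher and 4.48% lower on day 0, and at 21.7% and 6.05% on day 6. From day 0 to day 6, 2 of the decay factors were lower in wild type and 1 in knockout, near or under 41.5% and 24.8%.

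The chaperones listed carry histones to DNA, and the S phase genes listed act in replication. On day 6, 6 of 12 chaperones and 11 of 19 S phase genes were higher in knockout and none lower, against 21.7% of all features higher, with median log2 ratios of 0.50 and 0.65 beside 0.27 for all features. With TMM factors 2 of 12 chaperones and 6 of 19 S phase genes were higher and none lower, against 9.67% of all features. ASF1B stood at 7.14 and 13.8 CPM, CHAF1B at 6.18 and 11.95 CPM and NASP at 296 and 495 CPM. In wild type 8 chaperones and 16 S phase genes were lower on day 6 than on day 0 and none higher, against 41.5% of all features lower. In knockout 3 chaperones and 9 S phase genes were lower and 2 and 0 higher, against 24.8% of all features lower, which is the share of the chaperones. With TMM factors 5 and 14 were lower in wild type and 3 and 6 in knockout, against 25.0% and 19.9%. MCM2, part of the replicative helicase, stood at 39.4 and 35.2 CPM on day 0 and 12.1 and 22.9 CPM on day 6. On day 0 none of the 12 chaperones and none of the 19 S phase genes was called between genotypes, against 2.30% of all features higher and 4.48% lower. At such shares lists this short would show few calls, so these counts set them apart neither from all features nor from the histone genes.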

How the data were processed

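RNA of cells from 4 libraries was counted by gene and barcode as UMIs. The deposited counts were made by the authors with Cell Ranger against GRCh38, version 6.1.2 per the submitters' processing notes and 4 per the file headers, and hold all barcodes unfiltered. No source used here names the annotation release. Cells had at least 4000 UMIs, 1000 genes and at most 20% mitochondrially encoded UMIs. Doublets were kept.

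For each library, UMIs of a gene were added up over cells and scaled to CPM (per 1000000). Ratios have exact conditional binomial 95% intervals, CPM values exact Poisson ones, and both cover counting error only. A feature was measured at 2 CPM in 1 of the 2 libraries and called at 1.5-fold with an interval excluding 1. Named were members at 10 CPM or more in 1 library, up to 6 with the largest ratios each way in a comparison, the 5 highest and 5 lowest S to G1 ratios, and up to 4 genes a list. HIST1H2AL, H2AFZ, H2AFJ, SLBP, NPAT, NASP, MCM2 and the markers were named outside that rule, after their values were seen. The calls were tested on simulated data. Phases were scored on cells thinned to 4000 UMIs (scanpy 1.11.5, 43 S and 54 G2/M genes), and levels by phase used all UMIs. TMM factors came from edgeR 4.0.16 and size factors from DESeq2 1.42.0, as scaling alternatives only. Intervals used scipy 1.17.1.

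Members and lists were chosen with earlier results of these data known, and the H1 box was added to the motifs later. Promoters came from RefSeq (GRCh38.p14), stem-loops from GENCODE v29 transcripts. Protein sequences were not used here.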

Additional observations from a re-analysis of the deposited data

Results flagged for a closer look

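In 4 genes the knockout was lower than wild type on day 0 and higher on day 6, each past 1.5-fold. The log2 ratio of knockout to wild type went from -0.73 to 1.36 for HIST1H2AB, a difference of 2.09, and from -0.80 to 1.16 for HIST1H2AM, a difference of 1.95. It went from -0.62 to 0.76 for HIST1H4I (1.38) and from -0.59 to 0.62 for HIST1H2AJ (1.21). HIST1H2BM went opposite ways with time, with a log2 ratio of day 6 to day 0 of -0.76 in wild type and 0.84 in knockout, a difference of 1.60. With 1 library in each group, none of these differences was tested. How many of all features were called opposite ways was not counted, so these counts have no background share. In the single comparisons 4.48% of all features were lower in knockout on day 0 and 21.7% higher on day 6. With time 41.5% were lower in wild type and 15.2% higher in knockout. HIST1H2AB, HIST1H2AM and HIST1H2BM stayed under 4 CPM in every library. With TMM factors the day 6 ratio of knockout to wild type was 1.30 for HIST1H2AJ and 1.43 for HIST1H4I, and HIST1H2AJ was 1.49-fold lower on day 0. HIST1H2BM was then 1.30-fold lower on day 6 than on day 0 in wild type, so these 3 genes no longer passed 1.5-fold both ways.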

How the results depend on the processing

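No paired analysis was possible because each group has 1 library, and for the same reason no replicate could be left out. The sums without HIST1H4C and the values in cells scored S or G2/M alone were chosen after seeing the data. The cause of the shifts below was not tested. For knockout against wild type on day 0, the log2 ratio of the histone sum (-0.18) was -0.16 with TMM and with DESeq2 factors. It was -0.094 in cells of at least 8000 UMIs, -0.22 without the cells of highest UMI totals and -0.13 with phases weighted equally. In knockout cells with a chromosome 20 share of 3% or more it was -0.30, in S -0.27, in G2/M -0.10 and without HIST1H4C -0.29. Members higher (0 of 52, against 2.30% of all features) were 1 of 52 with equal phases (5.29%). Members lower (9 of 52, against 4.48% of all features) were 17 of 52 in the chromosome 20 subset (4.51%), 4 of 22 at a minimum of 10 CPM (2.05%) and 2 of 52 at 2-fold (1.47%). With equal phases they were 10 of 52 (8.54%), of which 5 were among the 9. In that setting the 65 and 161 day 0 cells scored G1 weigh as much as each other phase. Intervals still use the full UMI totals, so they are too narrow there.

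On day 6 the log2 ratio (0.64) was 0.39 with TMM, 0.37 with DESeq2 factors, 0.55 scaled without ribosomal protein and mitochondrially encoded genes, 0.53 in cells of at least 8000 UMIs, 0.45 with equal phases, 0.53 in the chromosome 20 subset, 0.49 in S, 0.59 in G2/M and 0.28 without HIST1H4C. Members higher (21 of 52, against 21.7%) were 9 of 52 with TMM (9.67%), 9 of 52 with DESeq2 factors (9.02%), 13 of 51 at 8000 UMIs (23.5%), 6 of 46 with equal phases (20.5%), 8 of 55 in S (21.8%), 7 of 22 at 10 CPM (17.4%) and 7 of 52 at 2-fold (5.57%). The count was thus near the share of all features at 8000 UMIs and under it with equal phases and in S. Members lower (3, against 6.05%) were 7 with TMM (10.8%), 7 with DESeq2 factors (11.5%), 6 without the ribosomal and mitochondrial genes (7.84%), 6 with free RNA subtracted (6.395%), 5 with equal phases (5.95%), 6 in the chromosome 20 subset (5.59%), 5 in S (5.78%), 1 in G2/M (6.10%) and 0 at 2-fold (2.95%).

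For day 6 against day 0 in wild type the log2 ratio (-0.64) was -0.25 with TMM, -0.23 with DESeq2 factors, -0.55 without the ribosomal and mitochondrial genes, -0.51 at 8000 UMIs, -0.65 without the highest totals, -0.57 with equal phases, -0.55 in S and -0.28 in G2/M. It changed sign to 0.024 without HIST1H4C. Members lower (27 of 52, against 41.5%) were 15 of 52 with TMM (25.0%), 15 of 52 with DESeq2 factors (24.3%), 16 of 50 in G2/M (42.3%), 11 of 25 at 10 CPM (37.2%) and 15 of 52 at 2-fold (24.6%), so in G2/M they were under the share of all features. In knockout the log2 ratio (0.18) was 0.30 with TMM and with DESeq2 factors, 0.11 at 8000 UMIs, 0.21 without the highest totals, 0.0097 with equal phases, 0.21 in S, 0.41 in G2/M and 0.59 without HIST1H4C. Members higher (11 of 52, against 15.2%) were 25 of 52 in G2/M (15.0%) and 4 of 52 at 2-fold (6.92%). Members lower (7 of 52, against 24.8%) were 3 of 51 with TMM (19.9%), 4 of 51 with DESeq2 factors (20.1%), 3 of 52 in G2/M (24.3%), 3 of 24 at 10 CPM (20.9%) and 1 of 52 at 2-fold (12.5%).

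The log2 ratio of S to G1 for the sum was 1.74 with unthinned scoring in wild type on day 0 (0.58), and 0.42 with scoring within the library and 0.98 unthinned in knockout on day 0 (0.29). On day 6 it was 1.02 within the library in wild type (1.06), and 1.36 within the library and 1.63 unthinned in knockout (1.53). Day 0 G1 held 65 and 161 cells, which limits its depth.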
